A study of Homo sapiens with 8 samples.

Results

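The nuclear genes that encode subunits of the oxidative phosphorylation complexes were followed through 8 ATAC-seq peak lists from 2 established human lung cancer lines. Members were the protein-coding genes on chromosomes 1 to 22 and X whose symbols begin with NDUFA, NDUFB, NDUFC, NDUFS or NDUFV (complex I), UQCR (complex III), COX4 to COX8 (complex IV), or ATP5F, ATP5M or ATP5P (complex V), with the NDUFAF assembly factors left out. This gave 83 of 19974 genes: 38 for complex I, 9 for complex III, 17 for complex IV and 19 for complex V. No value of these data entered that rule. The 83 include 2 readthrough genes, ATP5MF-PTCD1 and NDUFC2-KCTD14, which share most of their windows with ATP5MF and NDUFC2. NDUFA4 and NDUFA4L2 carry other symbols in the gene table used here and were not members, and complex II has no gene under the rule.

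ATAC-seq marks open chromatin, because a transposase inserts sequencing adapters where DNA is accessible, and a peak is a stretch with more insertions than its background. The groups were H1975 with DMSO, H1975 with ACBI1, HCC44 with DMSO and HCC44 with ACBI1, with 2 samples in each. All 8 samples carry the genotype label WT and were harvested after 96 h, and DMSO is the solvent. ACBI1 is a small molecule that leads the cell to degrade SMARCA2 and SMARCA4, the ATPase subunits of SWI/SNF chromatin remodellers, and the subunit PBRM1. The labelled dose is 1 mM. The labels do not say whether replicates were separate cultures, so every spread below is that between 2 samples and may be technical. Loss of the target proteins was not analysed here.

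The respiratory chain passes electrons from NADH through complex I, or from succinate through complex II, to ubiquinone, then through complex III and cytochrome c to complex IV, which reduces oxygen. The protons pumped on the way drive complex V, the ATP synthase. Most subunits are nuclear-encoded and a few come from mitochondrial DNA, so both genomes must be expressed together, and NRF1, the ETS factor GABP and YY1 are the best known activators of the nuclear genes. The promoters of these genes are typically of the broad, GC-rich kind found at genes active in almost every cell, while several complex IV subunits have isoforms restricted to muscle, lung or testis.

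Promoters of subunits from all 4 complexes are printed first, chosen because they show the sequence features that recur in the group and because the peaks described next lie on them. They are RefSeq sequences of GRCh38.p14, 5′ to 3′ along the gene, from 250 bases before an annotated start to 50 bases after it. Capitals mark matches on either strand to the NRF1 consensus core (a GC-rich near-palindrome with 1 free base, the only kind of match marked in NDUFB4), CCGGAAG (ETS) or ATGGCGG (YY1). NDUFB4 (complex I, chr3:120596086-120596385, + strand) has 3 NRF1 matches. NDUFS1 (complex I, chr2:206159395-206159694, − strand) has an ETS and a YY1 match, and UQCRC1 (complex III, chr3:48609597-48609896, − strand) has an NRF1 and a YY1 match. COX5B (complex IV, chr2:97645812-97646111, + strand) has 2 ETS matches and ATP5F1C (complex V, chr10:7787927-7788226, + strand) has 1 NRF1 match. ATP5PF (complex V, chr21:25734855-25735154, − strand) has 2 ETS and 2 YY1 matches. COX6B1 (complex IV, chr19:35648073-35648372, + strand) is shown as the member whose end peak was missing from both HCC44 ACBI1 lists.
NDUFB4: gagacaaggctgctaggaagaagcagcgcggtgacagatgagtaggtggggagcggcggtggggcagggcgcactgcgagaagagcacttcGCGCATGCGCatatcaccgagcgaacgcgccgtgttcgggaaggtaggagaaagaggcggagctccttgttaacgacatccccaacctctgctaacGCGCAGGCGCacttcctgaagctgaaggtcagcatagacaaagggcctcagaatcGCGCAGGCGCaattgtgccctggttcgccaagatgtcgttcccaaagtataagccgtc
NDUFS1: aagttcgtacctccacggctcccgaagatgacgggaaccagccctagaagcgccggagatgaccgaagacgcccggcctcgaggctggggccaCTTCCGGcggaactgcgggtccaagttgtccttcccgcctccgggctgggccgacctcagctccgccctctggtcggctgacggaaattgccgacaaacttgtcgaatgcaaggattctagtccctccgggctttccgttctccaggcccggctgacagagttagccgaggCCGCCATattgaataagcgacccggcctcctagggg
UQCRC1: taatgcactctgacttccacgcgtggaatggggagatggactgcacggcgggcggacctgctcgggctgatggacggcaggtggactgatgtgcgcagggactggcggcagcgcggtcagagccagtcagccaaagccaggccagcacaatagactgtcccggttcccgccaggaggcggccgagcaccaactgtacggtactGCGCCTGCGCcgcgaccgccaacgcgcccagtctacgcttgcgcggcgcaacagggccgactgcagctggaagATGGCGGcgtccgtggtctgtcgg
COX5B: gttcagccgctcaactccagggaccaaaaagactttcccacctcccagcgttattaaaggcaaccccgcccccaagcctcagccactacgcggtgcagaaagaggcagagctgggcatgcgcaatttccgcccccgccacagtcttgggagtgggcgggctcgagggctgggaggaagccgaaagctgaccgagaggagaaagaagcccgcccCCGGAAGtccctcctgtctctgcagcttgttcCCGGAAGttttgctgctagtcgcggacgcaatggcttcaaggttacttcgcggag
ATP5F1C: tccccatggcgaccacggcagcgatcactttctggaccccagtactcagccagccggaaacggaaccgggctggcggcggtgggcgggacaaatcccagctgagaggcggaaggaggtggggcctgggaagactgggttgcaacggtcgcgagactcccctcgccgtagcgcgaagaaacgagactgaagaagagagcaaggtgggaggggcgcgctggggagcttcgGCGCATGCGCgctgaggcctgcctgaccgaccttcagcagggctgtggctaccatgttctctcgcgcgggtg
ATP5PF: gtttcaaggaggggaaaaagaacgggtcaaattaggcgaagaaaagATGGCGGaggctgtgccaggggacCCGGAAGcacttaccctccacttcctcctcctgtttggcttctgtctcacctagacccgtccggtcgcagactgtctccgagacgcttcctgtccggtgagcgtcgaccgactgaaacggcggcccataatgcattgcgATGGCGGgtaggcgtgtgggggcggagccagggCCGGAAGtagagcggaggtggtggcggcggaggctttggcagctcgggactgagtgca
COX6B1: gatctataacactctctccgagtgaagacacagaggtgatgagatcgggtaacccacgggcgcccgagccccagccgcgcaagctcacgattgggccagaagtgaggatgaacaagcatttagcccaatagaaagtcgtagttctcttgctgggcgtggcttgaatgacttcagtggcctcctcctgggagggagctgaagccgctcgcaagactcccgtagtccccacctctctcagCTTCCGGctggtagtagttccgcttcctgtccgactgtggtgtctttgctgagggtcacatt

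The ACBI1 lists were shorter than the DMSO lists. The H1975 lists held 43525 and 41027 peaks for the DMSO samples, against 27682 and 22133 for ACBI1. The HCC44 lists held 50347 and 49945 for DMSO, against 26313 and 24862. Depth in reads is unknown, and a list can be shorter through fewer reads, lower signal over background or fewer open regions, so all changes in peak number below go with this difference in list length. Its part in the results was not tested. As a check of the labelled cell type, 4 of 5 epithelial marker genes had a peak at a gene end in all 8 samples, and CDH1 lacked one only in HCC44 ACBI1 replicate 1. PTPRC of leukocytes and PECAM1 and CDH5 of endothelium had none in any sample, while CD14 and COL1A1 had one in all 8 and PDGFRB in 7. Of the lung lineage markers, NKX2-1 had an end peak in all 4 H1975 samples and in 1 HCC44 sample, SFTPB had one only in both HCC44 DMSO samples, and SFTPC had one in all 8.

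Most oxidative phosphorylation genes had a peak at an end in both lines. Nearly all of these had one again with ACBI1, as most genes did. A peak at an end, meaning within 1 kb of either end of the gene, was listed for 69 of 83 members (83.1%) in both DMSO samples of H1975 and for 69 of 83 in both DMSO samples of HCC44. Among all protein-coding genes the shares were 59.6% in H1975 and 61.0% in HCC44. With ACBI1 the end peak was again listed in both samples for 69 of 69 members in H1975, against 95.2% of all genes that had one. In HCC44 it was listed again for 68 of 69 members (98.6%), against 91.9%. These kept shares were near those of all genes and are not read as a result about these genes. When only peaks with a fold enrichment over the caller's background of at least 5 were counted, 61 of 61 members kept one in H1975 and 43 of 52 in HCC44. The share of all genes at this threshold was not computed, so these counts have no background. Over the 8 samples, 68 members (81.9%) had an end peak in every sample, 13 in none and 2 in some, beside 52.8% and 32.8% of all genes with one in every sample and in none. For 59 members there was exactly 1 end peak in each of the 8 samples.

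By complex, the end peak was present in both DMSO samples and kept in both ACBI1 samples for 34 of 34 complex I members in each line. The same held for 8 of 8 members of complex III and 17 of 17 of complex V in each line. Complex IV kept 10 of 10 in H1975 and 9 of 10 in HCC44. Of all genes with an end peak in both DMSO samples, 95.2% kept it in H1975 and 91.9% in HCC44. The 9 main subunits described in full are given next, beside 52.8% of all genes with an end peak in all 8 samples. NDUFS1 and NDUFV1, of the electron-input arm of complex I, UQCRC1 and UQCRFS1 of complex III, the latter the Rieske iron-sulfur protein, COX4I1, COX5A and COX5B of complex IV, and ATP5F1A and ATP5F1B, the alpha and beta subunits of the ATP synthase head, all had an end peak in all 8 samples.

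The peaks lay at the starts of the genes and not at their other ends. RefSeq promoters gave a strand and start for 67 members, at 80 starts in all. A peak overlapped the 1 kb window of an annotated start in all 8 samples for 61 of the 67 and in no sample for 4, and for 60 the start base itself was inside a peak in every sample. The first end of the gene had a peak in all 8 samples for 57 of 67 members, whereas the last end had none in any sample for 60. The last end had a peak in all 8 samples for 3 members, NDUFA7, NDUFB10 and NDUFB6, and none had one there without one at the first end.

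Start peaks were wide, and the widths were smaller in the ACBI1 lists. The median width over members was 1102 and 1004 bp in the H1975 DMSO samples, against 934 and 763 bp under ACBI1. In HCC44 it was 1142 and 1049 bp against 916.5 and 908.5 bp, so the groups did not overlap in either line. Peaks at the ends of all genes had medians of 1064 and 1005 bp against 1009 and 812 bp in H1975, which overlap, and of 1148 and 1147 against 977 and 972 bp in HCC44. Ranked by the authors' −log10 q within its own list, the members' start peaks had a median percentile of 86.4 and 86.3 with DMSO and 80.4 and 75.9 with ACBI1 in H1975, and of 85.0 and 81.6 against 80.9 and 80.4 in HCC44. Peaks at the ends of all genes ranked at 78.2 and 78.3 against 74.7 and 70.2 in H1975 and at 74.3 and 74.1 against 73.6 and 73.1 in HCC44. Ranks from lists of different length show no change by themselves.

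**Figure D1:**
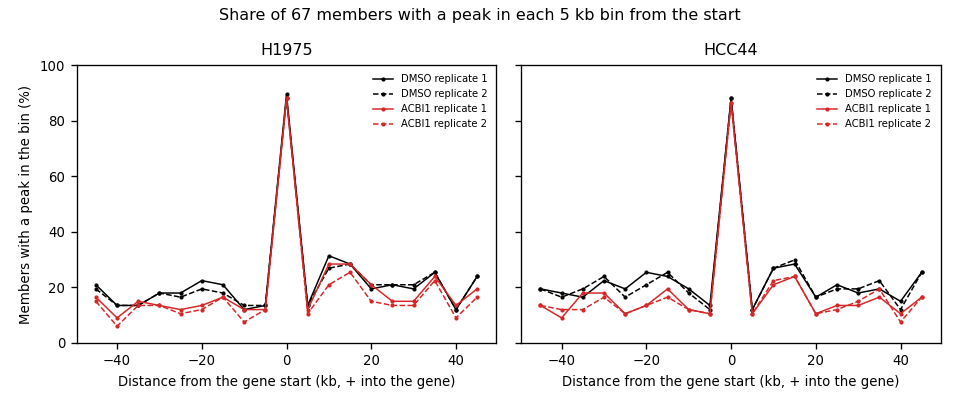
Share of the 67 members with an annotated start that have a peak in each 5 kb bin of distance from the start (x axis, kb; y axis, percent of members), per sample. The bin at the start lies between 86.6% and 89.6% in all 8 samples, while the median of the other bins lies between 18.7% and 19.4% with DMSO and between 12.7% and 14.9% with ACBI1.

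The profile of peaks by distance from the start places the difference outside the start. The 5 kb bin that holds the start had a peak for 89.6% and 88.1% of members in the H1975 DMSO samples and for 88.1% in both ACBI1 samples. In HCC44 the shares were 88.1% in both DMSO samples and 86.6% in both ACBI1 samples. The median of the other bins, out to 45 kb, was 19.4% and 18.7% with DMSO and 14.9% and 13.4% with ACBI1 in H1975, and 19.4% in both DMSO samples against 13.4% and 12.7% in HCC44.

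COX6B1 was the only member whose end peak was present in both DMSO samples and missing from both ACBI1 samples of a line. It encodes a complex IV subunit that faces the intermembrane space and helps join 2 monomers into a dimer. In H1975 its peak at the start (chr19, position 35648323, + strand) had a fold enrichment over the caller's background of 3.67 and 4.22 under DMSO and 3.07 and 4.57 under ACBI1, so the groups overlapped. In HCC44 it had 3.12 and 2.61 with DMSO, at −log10 q of 39.0 and 26.4, and no peak was listed in either ACBI1 sample. The fold enrichment of these DMSO peaks was at percentiles 3.8 and 1.5 of their lists, near the bottom, and the peaks were 682 and 617 bp wide. The surrounding peaks of COX6B1 numbered 6 in every HCC44 sample. With 2 samples a group the change at this 1 gene cannot be tested to 0.05.

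The members without an end peak fall into several kinds. COX6A2, the muscle isoform of a complex IV subunit, had an end peak only in H1975 DMSO replicate 1. COX4I2, an isoform known from lung and placenta, COX7A1, known from heart and muscle, COX7B2 and COX8C, known mainly from testis, and ATP5MGL had none in any sample. Their widely expressed counterparts COX4I1, COX6A1, COX7B, COX8A and ATP5MG had an end peak in all 8 samples. COX7A2, the counterpart of COX7A1, had none at its ends, although it had one at an internal start, described next. COX6B2, known from testis, is an exception to the contrast, with a peak within 1 kb of an end in all 8 samples beside COX6B1. No peak covered its annotated start base in any sample. UQCRHL is a near-identical copy of UQCRH, and reads may have been split or lost between them, so its lack of a peak is uncertain, whereas UQCRH had a peak in every sample.

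A further 4 absences go with where the gene table puts the ends. ATP5MC2, COX7A2, COX7A2L and NDUFA5 had no peak at either end but had one in all 8 samples at an annotated start inside the gene. That start lies 6497 bp inside the end for COX7A2, 7740 bp for COX7A2L and 43833 bp for NDUFA5, and the ATP5MC2 starts lie 5093 to 6004 bp inside. For NDUFA5, a complex I subunit, the internal promoter (chr7:123557769-123558068, − strand) holds a YY1 match just after the start, marked in capitals below. COX8C (chr14:93346932-93347231, + strand) is printed with it as the opposite case, a promoter with the NRF1 core at which no list had a peak.
NDUFA5: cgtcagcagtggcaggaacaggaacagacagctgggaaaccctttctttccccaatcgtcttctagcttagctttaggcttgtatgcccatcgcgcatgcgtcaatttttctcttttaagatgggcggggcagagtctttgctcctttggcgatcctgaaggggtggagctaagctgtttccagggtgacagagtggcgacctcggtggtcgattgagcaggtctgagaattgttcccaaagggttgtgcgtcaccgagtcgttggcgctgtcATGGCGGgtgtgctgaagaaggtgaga
COX8C: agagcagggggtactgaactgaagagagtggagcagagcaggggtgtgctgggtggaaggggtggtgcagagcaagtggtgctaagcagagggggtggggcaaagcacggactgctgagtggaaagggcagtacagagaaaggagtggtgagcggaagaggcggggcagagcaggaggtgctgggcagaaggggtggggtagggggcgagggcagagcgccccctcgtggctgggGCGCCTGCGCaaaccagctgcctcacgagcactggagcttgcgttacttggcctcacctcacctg

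For some members a missing peak could not be read as closed chromatin. NDUFA3 and NDUFA6, complex I subunits, lie in stretches of 111405 and 194794 bp in which none of the 8 lists has a peak, and which hold 6 and 3 protein-coding genes. COX8C lies in such a stretch of 1538370 bp with 22 protein-coding genes and COX7B2 in one of 696378 bp with 2. Whether reads in these stretches were removed or did not map was not analysed here.

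**Figure D2:**
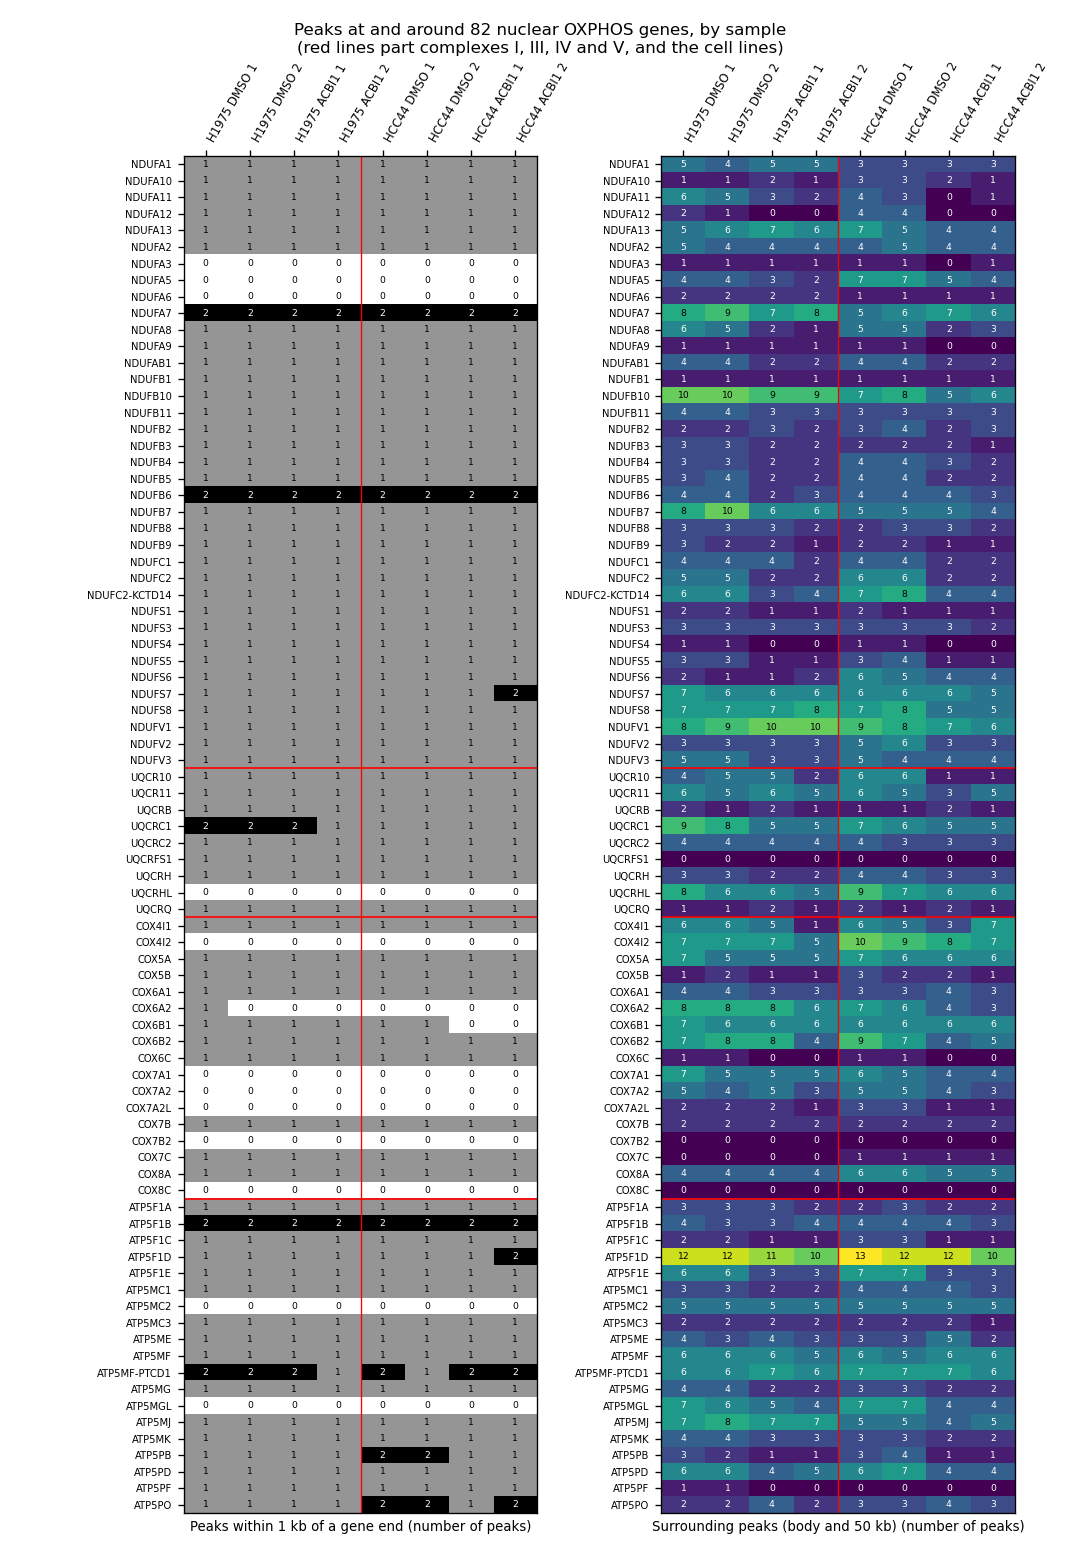
Peaks of 82 of the 83 oxidative phosphorylation genes in the 8 samples, with DMSO and ACBI1 samples of each line side by side. The panels show end peaks and surrounding peaks per member, grouped by complex, with the number of peaks in each cell. Presence of any end peak differs between samples for COX6B1 and COX6A2 only, several other members have 1 end peak in some samples and 2 in others, and surrounding peaks are fewer with ACBI1 for many members.

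Many of the promoters are shared with a neighbour. Another protein-coding gene started on the opposite strand, head to head, within 1 kb for 22 of the 67 members with a start (32.8%), against 1946 of 15830 genes (12.3%). The distance between starts was 63 bp for UQCRQ and GDF9, 82 bp for UQCRH and LRRC41, 99 bp for NDUFA1 and RNF113A, and 104 bp for NDUFS3 and KBTBD4. NDUFA7 and the ribosomal protein gene RPS28 were 121 bp apart, COX4I1 and EMC8 151 bp, ATP5F1A and HAUS1 158 bp, and NDUFS1 and the elongation factor gene EEF1B2 165 bp. ATP5PF started 68 bp from GABPA, which encodes the DNA-binding subunit of GABP, so the printed ATP5PF promoter is also that of GABPA. A peak over such a promoter cannot be given to 1 gene of the pair.

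The promoters carried the letters of NRF1, ETS and YY1. The NRF1 core was found in 15 of 67 members (22.4%), against 9.68% of all 15812 genes with a promoter entry and 14.2% of the 9422 whose start had a peak in all DMSO samples. CCGGAAG was found in 19 (28.4%), against 16.5% and 23.3%, and ATGGCGG in 19 (28.4%), against 9.15% and 13.1%. At least 1 of the 3 was present in 43 members (64.2%), against 29.7% of all genes and 42% of those with a start peak. Among the 62 members whose start had a peak in all DMSO samples, the NRF1 core was in 21%, CCGGAAG in 30.6% and ATGGCGG in 29%. The share with at least 1 was not computed for these 62. Counted in bp from the start, with minus for bases before it, the median position was −41.5 for the 26 ETS matches and −31 for the 21 NRF1 matches. Of 23 YY1 matches 16 lay after the start, with a median of 14. These matches were counted in the promoter of each annotated start, so a site in overlapping promoters of the same gene was counted in each. Both strands were searched and matches of different motifs could overlap. A match is a description of the sequence and not evidence of binding.

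The other promoter elements lay on both sides of the background. GGGCGG (SP1) was in 64.2% of members, against 64.2% of all genes and 79.4% of those with a start peak. CCAAT (NF-Y) was in 37.3% against 42.1% and 43.5%, TATAAA in 10.4% against 12.4% and 7.95%, and TGANTCA (AP-1) in 5.97% against 8.04% and 6.93%. TGACGTCA (the cyclic AMP response element) was in 5.97% against 3% and 3.87%. The median GC content of the members' promoters was 60.3%, against 62.3% for all genes and 65.3% for those with a start peak.

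Around the genes, peaks were fewer with ACBI1. The surrounding peaks of a gene are those elsewhere in its body and in the 50 kb on either side. The median member had 4 with DMSO and 3 with ACBI1 in each line, a median change of −1, and over all genes the median also changed by −1. Each ACBI1 sample had fewer surrounding peaks than either DMSO sample for 33 of 83 members (39.8%) in H1975 and for 40 (48.2%) in HCC44. Over all genes this held for 43.0% in H1975 and 54.5% in HCC44. Of the 79 members with a surrounding peak in both DMSO samples these are 33 and 40, beside 52.6% and 65.3% of all such genes. The members' shares were near the background or under it and are read as no result about these genes. The opposite, more in both ACBI1 samples, held for 1 member in H1975 (background 1.38%) and for 0 in HCC44 (background 1.85%). The groups overlapped for 49 and 43 members. Leaving out ACBI1 replicate 2 moved the members with more to 7 in H1975 and 5 in HCC44, and leaving out any 1 of the other samples to 2 and 1, where a group of 1 sample overlaps less by construction.

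Fewer surrounding peaks in both lines were found for 22 members (26.5%, background 33.6%), in H1975 alone for 11, in HCC44 alone for 18, and in neither for 32. An exact permutation test of each gene over both lines, two-sided, has 36 arrangements and cannot give a p under 0.0556. That smallest p was reached by 22 members (26.5%), against 33.8% of all genes, with an adjusted p of 0.165 after Benjamini-Hochberg adjustment over all genes, so no member passed 0.05. When each list was shortened to its 22115 peaks of highest −log10 q, the direction turned. Fewer surrounding peaks then held for 10 members (12.0%, background 12.0%) in H1975 and 7 (8.43%, background 14.0%) in HCC44, and more for 20 (24.1%, background 21.7%) and 30 (36.1%, background 27.7%). In this setting the total per list is fixed, and the part of list length in either direction was not tested.

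**Figure D3:**
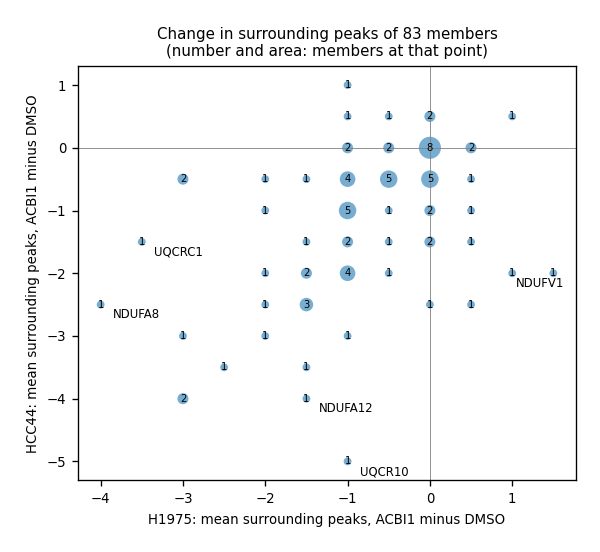
Change in mean surrounding peaks (ACBI1 minus DMSO, peaks per gene) of the 83 members in H1975 (x axis) and HCC44 (y axis), where the number in a point and its area give the members that share it. Most members lie at or below 0 in both lines, and NDUFV1 lies at 1.5 in H1975 and −2 in HCC44.

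The larger difference was in peaks away from gene ends. Counted once each over all members' windows, peaks at a member's own end numbered 73 and 72 with DMSO and 72 and 70 with ACBI1 in H1975, and 73 and 72 against 70 and 73 in HCC44. Peaks at the ends of other genes in the windows numbered 133 and 131 against 128 and 126, and 130 and 128 against 118 and 119. Distal peaks, at no gene end, numbered 207 and 196 with DMSO and 157 and 126 with ACBI1 in H1975, and 216 and 209 against 136 and 120 in HCC44. The groups did not overlap for distal peaks and for the ends of other genes in either line, and at own ends they overlapped in both.

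On the log2 scale the distal peaks changed by −0.52 ± 0.16 in H1975 and −0.73 ± 0.093 in HCC44 (SD, n = 2 per group), which is −29.8% and −39.8%. With lists of equal length these turned to 0.18 and 0.37, and with fold enrichment of at least 5 the HCC44 change was −1.44. In the windows of all protein-coding genes the distal change was larger, −1.06 ± 0.25 and −1.26 ± 0.061, or −51.4% and −58.3%. Own ends changed by −0.03 ± 0.023 and −0.02 ± 0.032, against −0.066 ± 0.033 and −0.14 ± 0.0094 for the ends of all genes. Distal peaks were also a smaller part of the members' windows, 49.1% to 51.6% of their peaks with DMSO and 38.5% to 44.0% with ACBI1. For all genes they were 69.3% to 73.0% with DMSO and 50.2% to 57.6% with ACBI1. Members lay among more genes, with a median of 3 other protein-coding genes in the window against 2, and were shorter, with a median of 9242 bp against 24170.5 bp. The part of gene density in the smaller change was not tested.

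**Figure D4:**
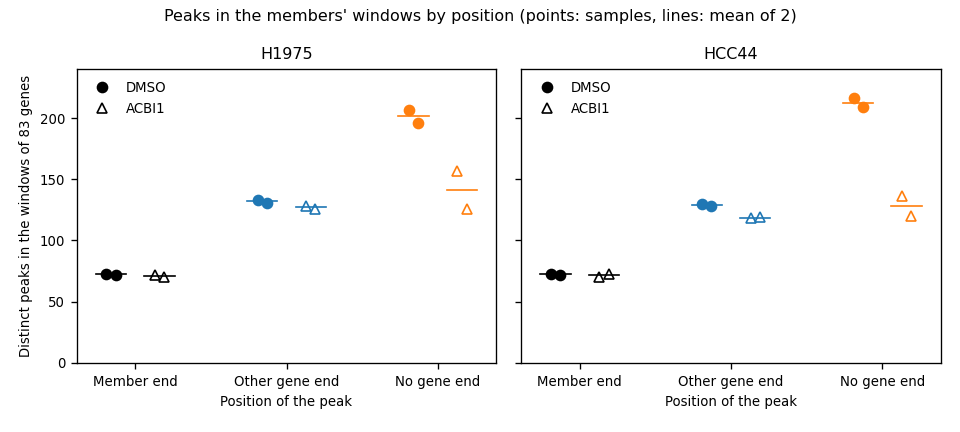
Distinct peaks in the windows of the 83 members by class (own end, end of another gene, distal) in each of the 8 samples, as points with a line at the mean of 2. Own-end peaks lie between 70 and 73 in all samples, and distal peaks between 196 and 216 with DMSO and between 120 and 157 with ACBI1.

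The same was seen region by region, where a region is a stretch with an overlapping peak in both DMSO samples of a line, and lost means no overlapping peak in either ACBI1 sample. Of 72 regions at members' ends, 0 were lost in H1975 and 2 (2.78%) in HCC44. Of regions at other genes' ends, 5 of 131 (3.82%) and 8 of 127 (6.3%) were lost, and of regions at the ends of all genes 4.23% and 8.73%. Distal regions were lost in 60 of 177 cases (33.9%) in H1975 and 90 of 194 (46.4%) in HCC44, against 48.2% of 22646 and 60.7% of 27469 over all genes' windows. Left to those with no annotated RefSeq start within 1 kb, the losses were 59 of 152 (38.8%) and 88 of 173 (50.9%), against 51.6% and 64% over all genes. Gains of a distal region, in both ACBI1 and neither DMSO sample, numbered 7 in H1975 and 11 in HCC44. These stand beside 177 and 194 distal regions with DMSO peaks in members' windows. Over all genes' windows there were 512 and 1028 gains, beside 22646 and 27469 such regions. Gains are given as counts, and are not read as fewer at members.

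Losses shared by the lines were found at 32 distinct regions in the windows of 25 members (30.1%), against 35.5% of all genes with such a region in their window. Of the H1975 regions with DMSO peaks, the 32 were 8.42% of 380 in members' windows, against 17.7% of 33509 over all genes' windows. Regions at gene ends, which were less often lost, made up 203 of the 380 and 10863 of the 33509. The part of this mix in the difference was not tested. Of the 32 shared losses, 22 lay in the body of a protein-coding gene and 3 at a gene end. Exons and introns were not told apart. Within ATP5F1C, the gamma subunit that turns inside the ATP synthase head, the lost region was chr10:7797422-7797783 in H1975, with a fold enrichment of 8.49 and 9.55 in the H1975 and 7.97 and 7.51 in the HCC44 DMSO samples. Within NDUFA12, an accessory subunit of complex I, it was chr12:94993996-94994582, at 9.09 and 11.1 in the H1975 DMSO samples and at 8.03 and 6.84 in those of HCC44. The body of the readthrough gene NDUFC2-KCTD14 held 3, at chr11:78028428-78028814, chr11:78040086-78041227 and chr11:78051472-78051829, all outside NDUFC2 itself, 16468 to 39483 bp from it.

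Named members show how the counts were spread over the samples. In H1975 the 5 largest differences among members with fewer surrounding peaks in both ACBI1 samples were in NDUFA8, UQCRC1, ATP5F1E, COX4I1 and NDUFA11, with NDUFB7 and NDUFC2 at the same difference as the last 3. NDUFA8, an accessory complex I subunit of the intermembrane space side, had 6 and 5 surrounding peaks against 2 and 1 in H1975, and 5 and 5 against 2 and 3 in HCC44. Its groups did not overlap in either line. UQCRC1, a core protein of complex III on the matrix side, had 9 and 8 against 5 and 5 in H1975 and 7 and 6 against 5 and 5 in HCC44. One of its regions lost in both lines was chr3:48564061-48564501, at an end of the collagen gene COL7A1.

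ATP5F1E, the epsilon subunit of the ATP synthase, had 6 and 6 surrounding peaks against 3 and 3 in H1975 and 7 and 7 against 3 and 3 in HCC44. All of the difference was in distal peaks, since peaks at other genes' ends stayed at 3 in every sample. Distal regions lost in both lines were chr20:59048048-59048461, with fold enrichments of 3.89 to 7.16 over the 4 DMSO samples, and chr20:59063654-59064236, with 6.23 to 12.5. The latter lay within 1 kb of an annotated RefSeq start. COX4I1, a subunit of complex IV, had 6 and 6 against 5 and 1 in H1975, and 6 and 5 against 3 and 7 in HCC44, where the groups overlapped. Its H1975 change of −3 rests on 1 library, since it was −1 without ACBI1 replicate 2 and −5 without ACBI1 replicate 1. NDUFA11, which anchors the membrane arm of complex I, had 6 and 5 against 3 and 2, and 4 and 3 against 0 and 1.

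In HCC44 the 5 largest differences were in UQCR10, ATP5F1E, NDUFA12, NDUFC2 and COX6B2, with NDUFC2-KCTD14 at the same difference as COX6B2. UQCR10, a small complex III subunit, had 6 and 6 surrounding peaks with DMSO and 1 and 1 with ACBI1 in HCC44, all of them distal. In H1975 it had 4 and 5 against 5 and 2, and the groups overlapped. NDUFA12 had 4 and 4 against 0 and 0 in HCC44 and 2 and 1 against 0 and 0 in H1975, so no surrounding peak was listed with ACBI1 in either line. NDUFC2, a complex I membrane-arm subunit, had 6 and 6 against 2 and 2 in HCC44 and 5 and 5 against 2 and 2 in H1975. COX6B2 had 9 and 7 against 4 and 5 in HCC44 and 7 and 8 against 8 and 4 in H1975, where the groups overlapped.

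NDUFV1, the complex I subunit that binds NADH and flavin, was the 1 member with more surrounding peaks in both ACBI1 samples of a line. It had 8 and 9 against 10 and 10 in H1975, a change of 1.5 that was 0.5 with a flank of 25 kb or a −log10 q of at least 20 and 0 with a flank of 100 kb. In HCC44 it had 9 and 8 against 7 and 6, a change of −2. NDUFS1, a core subunit of the same arm, had 2 and 2 against 1 and 1 in H1975, without overlap, and 2 and 1 against 1 and 1 in HCC44. UQCRFS1 had no surrounding peak in any sample, as had COX7B2 and COX8C.

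In complex IV, COX5A had 7 and 5 against 5 and 5 in H1975 and 7 and 6 against 6 and 6 in HCC44, and COX5B had 1 and 2 against 1 and 1, and 3 and 2 against 2 and 1. In complex V, ATP5F1A had 3 and 3 against 3 and 2, and 2 and 3 against 2 and 2, and ATP5F1B had 4 and 3 against 3 and 4, and 4 and 4 against 4 and 3. The groups overlapped or touched in every one of these 8 comparisons. ATP5F1D, the delta subunit, had the most surrounding peaks of all members, with 12 and 12 against 11 and 10 in H1975 and 13 and 12 against 12 and 10 in HCC44. At the other end, NDUFS4 and COX6C each had 1 surrounding peak in every DMSO sample and 0 in every ACBI1 sample.

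The tissue-restricted isoforms were not alike in their surroundings. COX4I2 had 7 and 7 against 7 and 5 in H1975 and 10 and 9 against 8 and 7 in HCC44. COX6A2 had 8 and 8 against 8 and 6, and 7 and 6 against 4 and 3, while COX6A1 had 4 and 4 against 3 and 3, and 3 and 3 against 4 and 3. COX7A1 had 7 and 5 against 5 and 5, and 6 and 5 against 4 and 4, while COX7A2 had 5 and 4 against 5 and 3, and 5 and 5 against 4 and 3. COX7B had 2 in every sample and COX8A had 4 in each H1975 sample and 6 and 6 against 5 and 5 in HCC44. Peaks near genes without an end peak of their own were therefore listed in number, and they need not belong to those genes.

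By complex, fewer surrounding peaks in both ACBI1 samples were found for 18 of 38 complex I members in H1975 and 21 in HCC44. The counts were 2 and 4 of 9 for complex III, 3 and 8 of 17 for complex IV, and 10 and 7 of 19 for complex V, beside 43.0% and 54.5% of all genes. No test of a difference between complexes was made.

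Between the lines at baseline, 20 members had more surrounding peaks in both HCC44 DMSO samples than in both H1975 DMSO samples (background 32.1%) and 15 had fewer (background 15.2%). NDUFS6, a zinc-binding complex I subunit, had 2 and 1 in H1975 and 6 and 5 in HCC44, and NDUFA5 had 4 and 4 against 7 and 7. NDUFB7 went the other way, with 8 and 10 in H1975 and 5 and 5 in HCC44. These 3 genes were picked after their values were seen. The numbers depend on the peaks kept, as 8 members had more and 25 fewer when only peaks with a fold enrichment of at least 5 were counted. Peaks at the ends of all genes had a median fold enrichment of 6.79 and 7.16 in the H1975 DMSO samples and 5.33 and 4.92 in those of HCC44. The share of all genes at this threshold was not computed, so the turn is not read as a result about these members.

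The other genes of the pathway also had end peaks, beside 52.8% of all genes with one in all 8 samples. The 6 genes of complex II and cytochrome c or c1 (SDHA, SDHB, SDHC, SDHD, CYC1 and CYCS) all had an end peak in all 8 samples, and fewer surrounding peaks with ACBI1 in both samples were found for 3 of 6 in H1975 and 2 of 6 in HCC44. Of 32 assembly factors, 32 had an end peak in both DMSO samples of each line and kept it in both ACBI1 samples in 32 cases in H1975 and 31 in HCC44. The exception was TMEM70, an assembly factor of complex V. Of all genes, 59.6% in H1975 and 61.0% in HCC44 had an end peak in both DMSO samples. Of these, 95.2% and 91.9% kept it, near the shares of the assembly factors. Surrounding peaks were fewer for 15 of 32 in each line, and more for SDHAF1 in both lines and COX18 in HCC44. These shares, like those of the 6 genes above, stand beside 43.0% of all genes with fewer in H1975 and 54.5% in HCC44, and 1.38% and 1.85% with more. ATP5IF1, the inhibitor of the ATP synthase, had an end peak in all 8 samples, and 5 and 5 surrounding peaks against 4 and 4 in H1975 and 6 and 5 against 5 and 5 in HCC44.

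The 12 regulators of these genes or of mitochondrial transcription had an end peak in all 8 samples, beside 52.8% of all genes. Fewer surrounding peaks were found for 6 of 12 in H1975 and 10 of 12 in HCC44, and more for 0, beside 43.0% and 54.5% of all genes with fewer and 1.38% and 1.85% with more. No test of the regulators as a group was made. NRF1 itself had 9 and 7 against 4 and 4 in H1975 and 6 and 8 against 3 and 3 in HCC44. PPARGC1B, which encodes the coactivator PGC-1 beta, had 5 and 5 against 1 and 0, and 8 and 6 against 2 and 2, and PPARGC1A, encoding PGC-1 alpha, had 2 and 3 against 0 and 0, and 2 and 2 against 1 and 1. TFB1M had 2 and 2 against 0 and 0, and 5 and 3 against 2 and 2, so the groups of these 4 genes did not overlap in either line. GABPA overlapped in H1975, with 2 and 2 against 2 and 1, and POLRMT, the mitochondrial RNA polymerase gene, overlapped in both lines. These 4 and the other regulators named here were picked with their values known.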

How the data were processed

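ATAC-seq was run on 8 samples, 2 for each of 4 groups, with 11 PCR cycles per the labels' protocols. The authors deposited 1 broad peak list per sample. Reads were aligned with BWA to hg38, per the submitters' processing notes, and the peak caller and its filters are not given in the sources used here. The authors' fold enrichment of a peak is a deposited ratio over the caller's background. The authors gave a p-value and a q-value per peak on the −log10 scale, and the smallest −log10 q of a list was 10.0 to 10.2. The deposited score restates the q-value and was not used.

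Gene positions came from the RefSeq table of GRCh38.p14 (19974 protein-coding genes) and starts from RefSeq promoters. In Python 3.11.15 (numpy 2.4.6, pandas 2.3.3, matplotlib 3.10.9), peaks overlapping a window by 1 bp or more were counted, within 1 kb of either gene end and elsewhere in the body and 50 kb either side. A gene was called fewer or more when the groups of 2 did not overlap. Each gene was tested by an exact permutation test within lines, with Benjamini-Hochberg adjustment over all genes. The scripts were tested on simulated data. p-values measure only the spread between these samples.

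Named genes were members lacking an end peak in any sample, tissue-restricted isoforms with their counterparts, the 5 largest falls per line, any with more peaks, and main subunits, of which 9 are given. Items of 1 member and 1 marker are not reported here, although counts include the member. The members and lists were chosen with earlier results of these data known. Thresholds, windows, joining, equal list lengths, left-out samples and a replicate block were tried as alternatives.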

Additional observations from a re-analysis of the deposited data

Results flagged for a closer look

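NDUFV1 is listed because its 2 samples with ACBI1 moved one way in H1975 and the other way in HCC44. The mean number of surrounding peaks changed by 1.5 in H1975 (8 and 9 with DMSO, 10 and 10 with ACBI1) and by −2.0 in HCC44 (9 and 8 against 7 and 6). The H1975 change was 0.5 with peaks of −log10 q of at least 20, 0.5 with a flank of 25 kb and 0 with a flank of 100 kb. The difference between the lines was not tested.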

How the results depend on the processing

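Of 189 alternative values for 24 results, leave-one-out aside, 142 were counted as unchanged and 4 turned direction. Unchanged meant within the SD between replicates for log2 and single-gene changes, and within a set ratio of the main value for counts. The others moved by more and could still keep their direction. Of 44 alternatives for log2 changes, 40 were below 0. The depth in reads is unknown, and list length limits every count of peaks. With lists of equal length, the log2 change of surrounding peaks became 0.19 in H1975 and 0.31 in HCC44 and that of distal peaks 0.18 and 0.37, members with fewer surrounding peaks numbered 10 and 7 and with more 20 and 30, and 9 members had more peaks in HCC44 than in H1975 with DMSO. With fold enrichment of at least 5, the end peak was kept for 43 of 52 members in HCC44, the HCC44 surrounding and distal changes were −1.08 and −1.44, more surrounding peaks held for 0 members in H1975, and 8 members had more and 25 fewer in HCC44 than in H1975 with DMSO. Shares of all genes at this threshold were not computed. With −log10 q of at least 20, the HCC44 changes were −0.59 and −0.94, and 2 members had more in H1975. With a flank of 100 kb, the HCC44 changes were −0.55 and −0.88, the smallest p held for 35 members, and more held for 0 in H1975 and 1 in HCC44. With a flank of 25 kb these were 13 members at the smallest p and 1 with more in HCC44. Joining peaks within 1200 bp left 0 with more in H1975, and counting peak midpoints gave 1 in HCC44. Leaving out 1 sample gave 34 to 46 members with fewer in H1975 and 44 to 52 in HCC44, more for 2 to 7 and 1 to 5, surrounding changes of −0.40 to −0.23 and −0.51 to −0.43, distal changes of −0.68 to −0.36 and −0.82 to −0.64, 18 to 25 members at the smallest p, 22 to 26 with more and 15 to 22 with fewer in HCC44 with DMSO, and end peaks kept for 69 and 68.

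Replicate numbers are shared by the groups. Deviations of same-numbered samples correlated at 0.114 in H1975 and 0.040 in HCC44 over all genes, and with 2 pairs per line the numbers are not shown to pair the samples. With the replicate block, fewer held for 36 and 43 members and more for 1 and 0, the smallest p (then 0.125) for 25, and end peaks were kept for 69 and 68.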
